A study of Homo sapiens with 12 samples.

Results

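The 10 genes described here encode the ID proteins (ID1, ID2, ID3, ID4) and members of the bone morphogenetic protein (BMP) pathway: the receptors BMPR1A and BMPR2, the receptor-activated SMADs SMAD1, SMAD5 and SMAD9, and the inhibitory SMAD6. They were taken by symbol from the 16384 genes counted in every library, and were selected on their measured levels in these same libraries, so the values below are a description and no p-value is given for any of the 10. The libraries are RNA-seq of MDA-MB-231, an established human triple-negative breast cancer cell line. There were 3 libraries each of cells given cardamonin at 10 µmol/L together with JQ1 at 25 µmol/L (Combination), JQ1 alone at 25 µmol/L (JQ1), cardamonin alone at 10 µmol/L (CAR), and the solvent DMSO. Cardamonin is a plant chalcone, and JQ1 is a small molecule that displaces BET bromodomain proteins from acetylated histones. All results come from 1 cell line, the labels used here give no time of treatment, and nothing in them says that the libraries of a group came from separate cultures. The p-values given for other genes therefore measure the spread between these libraries, which may be technical.

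BMP ligands bind a complex of type II and type I receptors, and the type I receptor then phosphorylates SMAD1, SMAD5 and SMAD9. These SMADs enter the nucleus with SMAD4, and the ID genes are among their best-known direct targets. ID proteins are helix-loop-helix factors without a DNA-binding basic region. They pair with E proteins such as TCF3 and TCF12 and keep them off DNA, and in breast cancer ID1 and ID3 are known for a role in metastatic colonisation. SMAD6 and SMAD7 act against the pathway and are themselves induced by it.

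The libraries held between 17449715 and 19754456 counts, and levels are given as counts per 1000000 counts of the library (CPM), with 3 counts in a library (between 0.152 and 0.172 CPM) taken as the floor. DMSO replicate 3 stood apart: its counts differed from those of the other DMSO libraries by a chi-square per degree of freedom of 10.6 and 12.6, against 1.46 to 2.31 for every other pair of libraries of a group. Its counts also leaned towards short genes. The rank correlation across genes between length and how far a library lay from its fellow libraries of the same group was -0.637 in it and -0.197 to 0.230 in the 9 drug-treated libraries, and 0.557 and 0.540 in the other DMSO libraries, whose fellows include it. Combination replicate 1 held liver transcripts: a list of 15 liver genes summed to 172 CPM, with all 15 above 0, against 1.42 to 3.94 CPM in the other 11 libraries. The endothelial list summed to 6.25 to 9.34 CPM over all libraries, and the 3 genes named as present in this line, VIM, CD44 and AXL, had group means of 519 CPM or more. The leukocyte list was nearly all CD68, with the pan-leukocyte gene PTPRC at 0 or 1 counts in every library. The fibroblast list summed to 39.5 to 40.5 CPM in Combination, 98.1 to 98.2 CPM in JQ1, 18.8 to 21.5 CPM in CAR and 40.0 to 41.8 CPM in DMSO, mostly from PDGFRB. Its stromal genes DCN, LUM and COL3A1 had at most 3 counts in any library. The remaining gene of that list, COL1A1, was present in every library. Its means were 2.39 CPM in Combination, 2.99 CPM in JQ1, 5.77 CPM in CAR and 7.60 CPM in DMSO. The estrogen receptor gene ESR1 had 0 to 9 counts in a library and the progesterone receptor gene PGR 0 to 13. KRT8 and KRT18, epithelial keratins that had been listed as low in this line, were abundant, with KRT18 at a mean of 195 CPM in the Combination libraries, the lowest of the 4 groups.

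The upstream sequences of ID1, ID2 and ID3 are shown because these 3 genes had the largest differences of the set. Each line gives the 250 bases before the start of the RefSeq transcript (build GRCh38.p14), on the strand of the gene, with capitals marking TATAAA and its overlapping reverse complement TTTATA. The stretches are chr20:31605039-31605288 on the plus strand for ID1, chr2:8681806-8682055 on the plus strand for ID2, and chr1:23559502-23559751 on the minus strand for ID3.
ID1: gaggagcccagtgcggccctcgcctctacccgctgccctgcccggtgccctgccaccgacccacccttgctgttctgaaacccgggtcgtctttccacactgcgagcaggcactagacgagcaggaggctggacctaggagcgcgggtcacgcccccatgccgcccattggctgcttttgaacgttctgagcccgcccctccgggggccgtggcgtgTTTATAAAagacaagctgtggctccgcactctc
ID2: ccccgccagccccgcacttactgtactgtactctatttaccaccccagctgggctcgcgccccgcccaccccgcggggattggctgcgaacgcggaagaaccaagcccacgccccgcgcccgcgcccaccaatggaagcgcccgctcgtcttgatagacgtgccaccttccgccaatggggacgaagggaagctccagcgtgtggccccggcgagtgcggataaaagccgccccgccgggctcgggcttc
ID3: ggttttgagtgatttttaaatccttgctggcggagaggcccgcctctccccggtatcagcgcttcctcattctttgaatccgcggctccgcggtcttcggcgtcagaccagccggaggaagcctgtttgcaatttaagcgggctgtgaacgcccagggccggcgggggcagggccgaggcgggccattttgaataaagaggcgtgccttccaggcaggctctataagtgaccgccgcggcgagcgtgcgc
All 10 genes matched a RefSeq promoter, taken as 250 bases before to 50 after the start. TATAAA, the core of the TATA box, was searched on both strands and began at position -31 of ID1 (with the overlapping reverse-strand match at -33), at -29 of ID4, at -28 of BMPR1A and at -225 of the second of the 5 starts of SMAD1. It was present in 11.5% of the 35116 windows of the same length over all genes. GGCGCC, a GC-rich SMAD binding motif held by 19.2% of windows, was found at SMAD5, BMPR2 and 2 of the 5 starts of SMAD1, and its letters are not in the windows of the 4 ID genes. The E-box CACGTG was in 7.26% of windows, and of the set at -25 of the first start of SMAD1 and at -178 of SMAD9. The cAMP response element TGACGTCA was in 1.85% of windows and in none of the set's. ID2 and ID3 held none of these motifs in this window.

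ID1, ID2 and ID3 were many times higher in both groups given JQ1 than in DMSO, and lay close to DMSO with CAR alone. ID1 was the most abundant of the family. It had 265, 265 and 270 CPM in the Combination libraries, 463, 454 and 484 CPM in the JQ1 libraries, 18.6, 18.7 and 18.6 CPM in the CAR libraries, and 21.8, 20.2 and 31.6 CPM in the DMSO libraries. Every library given JQ1 was far above every library without it, the Combination libraries lay between the JQ1 and the DMSO libraries, and the highest DMSO value was that of the library that stands apart. After scaling by TMM factors, ID1 was 12.5-fold higher in Combination than in DMSO (log2 fold change 3.65 ± 0.11, SE, n = 3 each) and 20.6-fold higher in JQ1 than in DMSO (4.37 ± 0.11). Without DMSO replicate 3 these log2 differences were 3.87 and 4.59.

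ID3 had the largest fold differences of the 10 genes. Its levels were 132, 123 and 128 CPM in the Combination libraries, 184, 188 and 193 CPM in the JQ1 libraries, 4.81, 3.73 and 4.21 CPM in the CAR libraries, and 4.96, 4.87 and 7.10 CPM in the DMSO libraries. As for ID1, the groups with and without JQ1 were wide apart and the JQ1 libraries lay above the Combination libraries. ID3 was 26.1-fold higher in Combination than in DMSO (log2 4.70 ± 0.08) and 36.1-fold higher in JQ1 than in DMSO (5.17 ± 0.08).

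ID2, close in sequence family to ID1 and ID3 but much less abundant in these cells, moved by a similar factor. It had 12.4, 11.8 and 12.2 CPM in the Combination libraries, 13.5, 15.5 and 15.5 CPM in the JQ1 libraries, 0.911, 0.682 and 0.746 CPM in the CAR libraries, and 0.422, 0.963 and 0.736 CPM in the DMSO libraries. The CAR and DMSO libraries overlapped, while the 6 libraries given JQ1 lay together well above them. The difference was 19.8-fold for Combination over DMSO (log2 4.31 ± 0.16) and 22.7-fold for JQ1 over DMSO (4.51 ± 0.16).

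ID4 was near the floor. Its counts were 13, 12 and 6 in the Combination libraries, 18, 15 and 21 in the JQ1 libraries, 1, 0 and 1 in the CAR libraries, and 1, 3 and 3 in the DMSO libraries. It was detectable mainly where JQ1 was given. From the summed counts, the rate was 4.46 times that of DMSO in Combination (95% interval 1.93 to 12) and 7.83 times in JQ1 (3.55 to 20.4), where the exact intervals cover counting error only. CAR and DMSO were both at or under the floor, so no ratio between them is given.

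Set on one scale per kilobase of merged exon (CPM per kb), the 4 ID genes summed to 293 ± 3.63 in Combination, 491 ± 14.6 in JQ1, 17.9 ± 0.345 in CAR and 23.4 ± 5.71 in DMSO (SD, n = 3 each). ID1 supplied most of this sum in every group, and ID3 the larger part of the rest. The share of ID1 was 73.8% ± 0.695 in Combination and 77.2% ± 0.456 in JQ1, against 84.7% ± 1.75 in CAR and 84.9% ± 1.13 in DMSO. ID3 took 24.3% in Combination and 21.4% in JQ1, against 13.2% in CAR and 13.5% in DMSO. The order ID1, ID3, ID2, ID4 of the mean levels per kb was the same in all 4 groups.

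**Figure D1:**
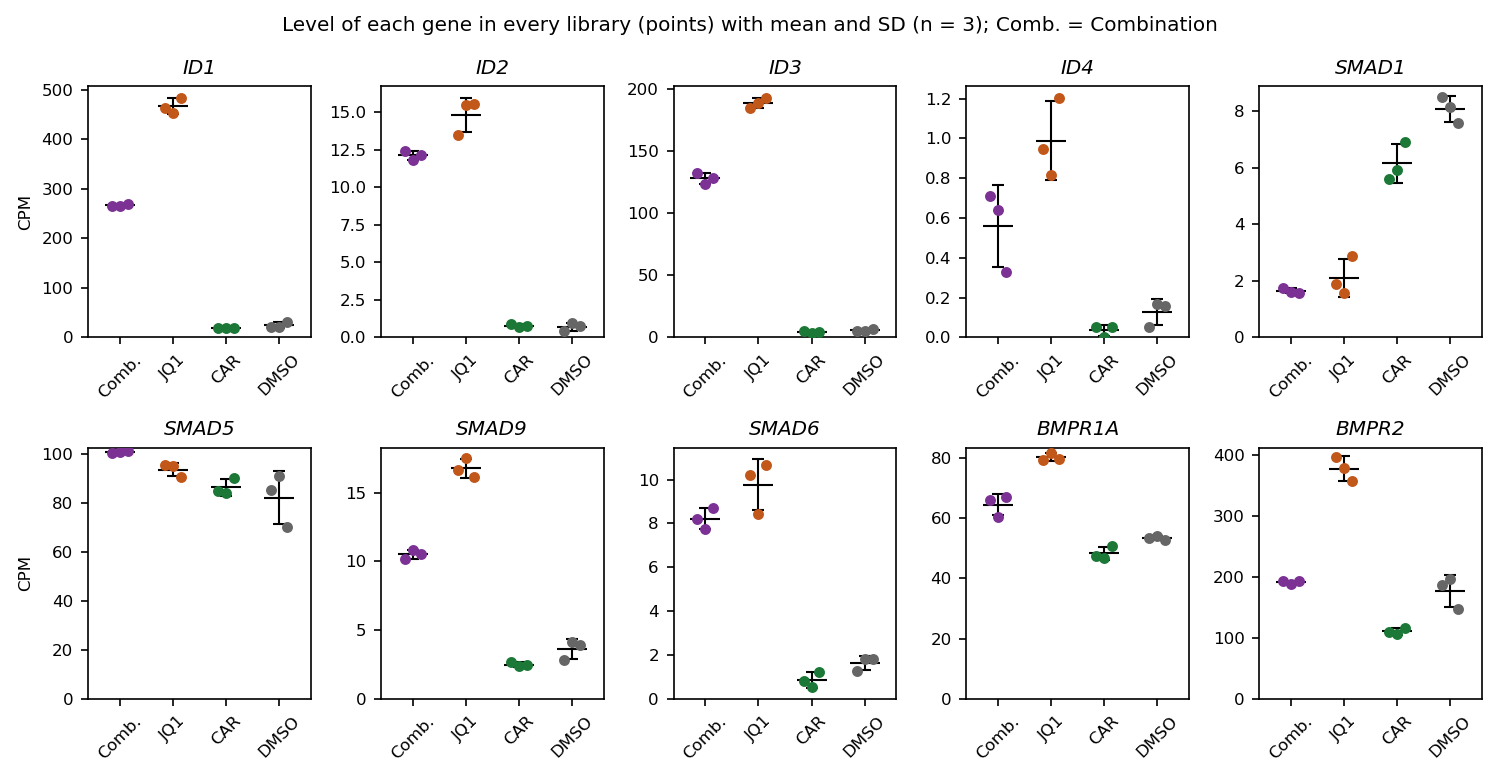
Level of each of the 10 genes in CPM (linear axes from 0, scaled separately) in the 3 libraries of each group, with the mean (long bar) and SD. The 6 libraries given JQ1 lie above the other 6 for ID1, ID2, ID3, ID4, SMAD9, SMAD6 and BMPR1A and below them for SMAD1, while SMAD5 and BMPR2 overlap between some of these groups.

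**Figure D2:**
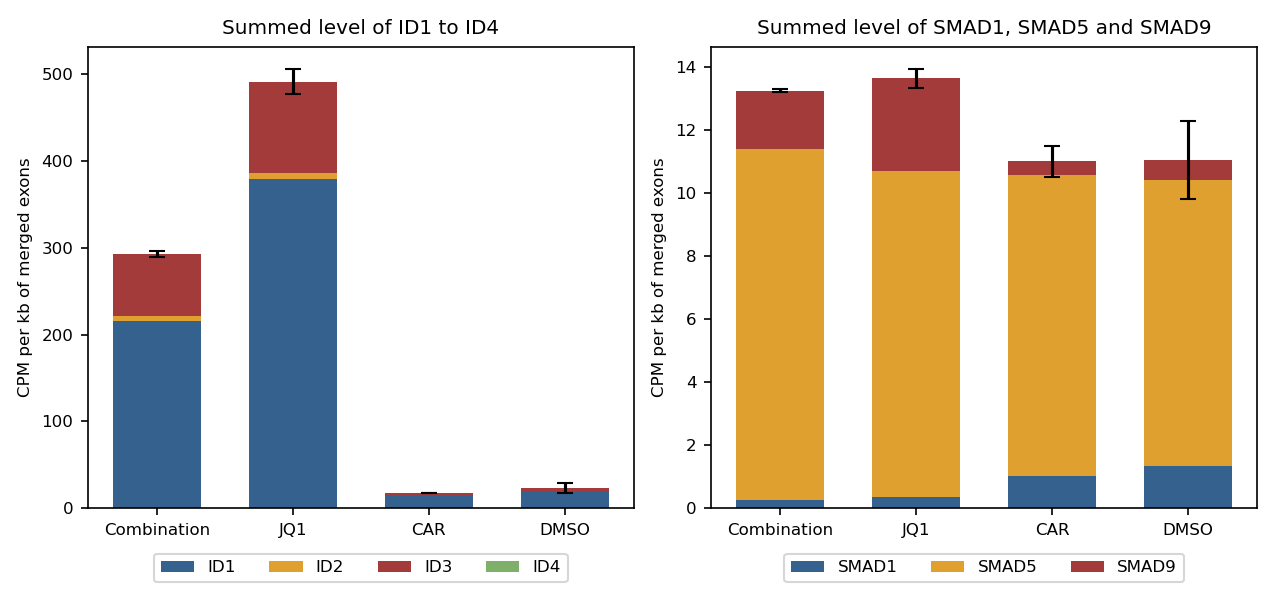
Stacked mean levels in CPM per kb of merged exon of ID1 to ID4 (left) and of SMAD1, SMAD5 and SMAD9 (right) by group, with the SD of the sum over 3 libraries. The ID sum was 293 in Combination and 491 in JQ1, against 17.9 in CAR and 23.4 in DMSO, while the SMAD sum stayed between 11.0 and 13.6 and changed mainly in make-up.

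The 3 SMADs that BMP receptors phosphorylate went in different directions. SMAD1 was lower with JQ1: it had 1.75, 1.61 and 1.58 CPM in the Combination libraries, 1.89, 1.58 and 2.87 CPM in the JQ1 libraries, 5.62, 5.93 and 6.93 CPM in the CAR libraries, and 8.49, 8.15 and 7.57 CPM in the DMSO libraries. The Combination and JQ1 libraries overlapped, and both lay below all CAR and DMSO libraries. SMAD1 was 4.23-fold lower in Combination than in DMSO (log2 -2.08 ± 0.17) and 3.53-fold lower in JQ1 than in DMSO (-1.82 ± 0.16), the only one of the 10 genes lower in either comparison.

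SMAD9, a less abundant SMAD of the same branch, was higher with JQ1. Its levels were 10.2, 10.9 and 10.5 CPM in the Combination libraries, 16.7, 17.5 and 16.2 CPM in the JQ1 libraries, 2.68, 2.36 and 2.45 CPM in the CAR libraries, and 2.80, 4.13 and 3.94 CPM in the DMSO libraries. No 2 of the 4 groups overlapped. SMAD9 was 3.36-fold higher in Combination than in DMSO (log2 1.75 ± 0.12) and 5.04-fold higher in JQ1 than in DMSO (2.33 ± 0.11).

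SMAD5 was the most abundant of the 3 and differed least. It had 101, 101 and 101 CPM in the Combination libraries, 95.3, 95.2 and 90.4 CPM in the JQ1 libraries, 84.9, 83.9 and 90.3 CPM in the CAR libraries, and 85.2, 91.1 and 70.4 CPM in the DMSO libraries. The Combination libraries were above all others, the JQ1 and DMSO libraries overlapped, and the lowest value came from DMSO replicate 3. The log2 difference was 0.50 ± 0.07 for Combination minus DMSO and 0.31 ± 0.07 for JQ1 minus DMSO, and 0.40 and 0.21 without that library.

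Per kb, SMAD1, SMAD5 and SMAD9 together stood at 13.3 ± 0.0580 CPM in Combination, 13.6 ± 0.298 in JQ1, 11.0 ± 0.484 in CAR and 11.1 ± 1.23 in DMSO (SD, n = 3 each). SMAD5 made up 84.1% of this sum in Combination, 75.9% in JQ1, 86.8% in CAR and 82.1% in DMSO. The other two exchanged places: SMAD9 held 13.9% in Combination and 21.5% in JQ1, against 3.97% in CAR and 5.78% in DMSO. SMAD1 held 2.05% in Combination and 2.57% in JQ1, against 9.22% in CAR and 12.1% in DMSO.

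SMAD6, which binds the activated receptors and SMAD1 and is a feedback inhibitor of the pathway, was higher with JQ1. It had 8.22, 7.76 and 8.68 CPM in the Combination libraries, 10.2, 8.44 and 10.7 CPM in the JQ1 libraries, 0.810, 0.525 and 1.23 CPM in the CAR libraries, and 1.27, 1.81 and 1.84 CPM in the DMSO libraries. The Combination and JQ1 libraries overlapped, and the CAR libraries lay just below the DMSO libraries. SMAD6 was 5.78-fold higher in Combination than in DMSO (log2 2.53 ± 0.17) and 6.46-fold higher in JQ1 than in DMSO (2.69 ± 0.16).

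The receptor genes differed by less. BMPR2, the BMP type II receptor, had 193, 189 and 193 CPM in the Combination libraries, 398, 379 and 358 CPM in the JQ1 libraries, 110, 106 and 116 CPM in the CAR libraries, and 187, 198 and 148 CPM in the DMSO libraries. The JQ1 libraries were above and the CAR libraries below all others, while Combination and DMSO overlapped. BMPR2 was 2.31-fold higher in JQ1 than in DMSO (log2 1.21 ± 0.09) and 1.53-fold lower in CAR than in DMSO (-0.61 ± 0.09). For Combination minus DMSO the log2 difference was 0.32 ± 0.09, and 0.11 when libraries were scaled by their total counts alone, a setting under which it no longer passed. It was 0.20 without DMSO replicate 3.

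BMPR1A, a type I receptor, had 65.9, 60.5 and 66.9 CPM in the Combination libraries, 79.4, 81.7 and 79.6 CPM in the JQ1 libraries, 47.4, 46.8 and 50.7 CPM in the CAR libraries, and 53.4, 54.1 and 52.7 CPM in the DMSO libraries. The groups did not overlap, and their order was JQ1, Combination, DMSO, CAR. The log2 difference was 0.48 ± 0.05 for Combination minus DMSO and 0.71 ± 0.05 for JQ1 minus DMSO. Per kb, BMPR2 exceeded BMPR1A in every group, with 16.1 against 5.65 CPM in Combination and 14.9 against 4.68 CPM in DMSO.

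Over all genes, the quasi-likelihood test of edgeR, adjusted by the Benjamini-Hochberg method, called 85.4% of the 12645 genes tested for Combination minus DMSO at an adjusted p under 0.05, and 83.7% for JQ1 minus DMSO. All 10 genes of the set passed the filter on low counts and all 10 were called in both comparisons, 9 higher and 1 lower in each. ID4, with at most 3 counts in any DMSO or CAR library, passed the filter only through the libraries given JQ1. Its calls as higher against DMSO or CAR therefore add nothing. Since most genes were called and the set was selected on these libraries, nothing is read from those counts. The same DMSO libraries enter both comparisons.

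With CAR alone the genes of the set were mostly somewhat lower than in DMSO, or within the spread of its libraries. The test called 57.3% of all genes for CAR minus DMSO, and of the 10 genes it called 0 as higher and 6 as lower: ID1, ID3, SMAD1, SMAD9, SMAD6 and BMPR2. That share is near the one over all genes, the set was selected on these libraries, and nothing is read from it. Of these 6, BMPR2 and SMAD6 had the largest differences, with SMAD6 1.83-fold lower (log2 -0.87 ± 0.27). ID1 was at -0.33 ± 0.13 and ID3 at -0.35 ± 0.13. Without DMSO replicate 3, ID1 stood at -0.11 and ID3 at -0.14 and neither was called.

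The calls with CAR rested on small margins. Without CAR replicate 2 only 2 of the 10 were called, with SMAD6 at -0.62 and not called, and over the fits that each left out 1 library the count was between 2 and 5. ID1 lost its call without any 1 of the 9 drug-treated libraries or without DMSO replicate 3, with log2 differences of -0.33 or -0.34 in the drug-treated cases. SMAD1, at -0.33 ± 0.13 over all libraries, was not called without CAR replicate 1 (-0.26), CAR replicate 2 (-0.30), DMSO replicate 1 (-0.29) or DMSO replicate 2 (-0.32). ID3 also lost its call without CAR replicate 2 (-0.26) or CAR replicate 3 (-0.34), and SMAD9, at -0.47 ± 0.15, without DMSO replicate 2 (-0.36). SMAD1 was not called by DESeq2 either (-0.33). BMPR2 was the one gene of the 6 that was called in each of these fits. As the set was selected on these libraries, this is a description only. Calls were also gained: SMAD5, at 0.14 ± 0.07 over all libraries, was called as higher without DMSO replicate 2 (0.22), and BMPR1A, at -0.08 ± 0.05, as lower with total counts alone (-0.15). For ID2 the difference was 0.22 ± 0.29, with a 95% interval from -0.39 to 0.83.

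**Figure D3:**
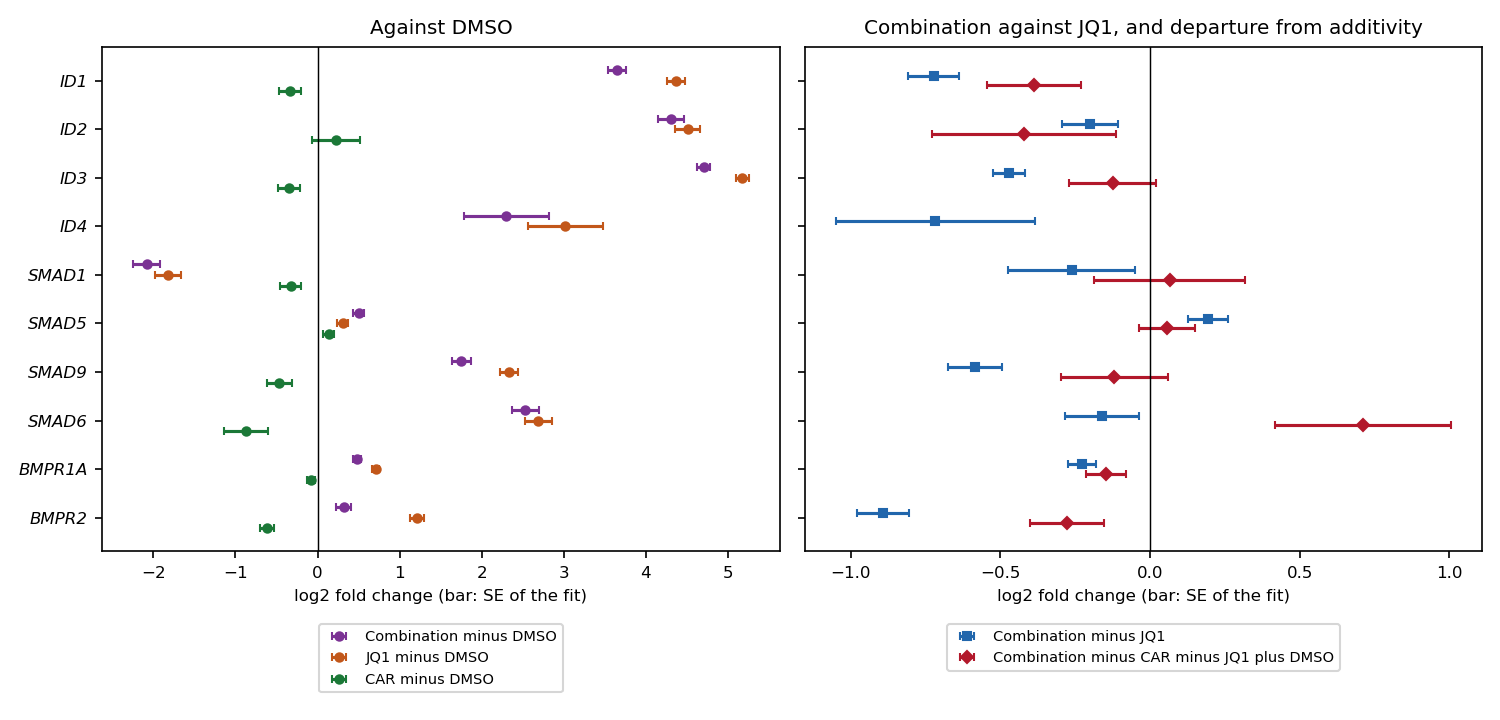
Log2 fold changes of the 10 genes with the SE of the fit (bars): left, Combination, JQ1 and CAR each minus DMSO; right, Combination minus JQ1, and the change with JQ1 in the presence of CAR minus that in its absence. ID3 reaches 5.17 and SMAD1 -2.08 on the left, most values of Combination minus JQ1 lie below 0, and ID4 is left out where both groups are at or under the count floor.

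Adding CAR to JQ1 was accompanied by lower levels of several of these genes. For Combination minus JQ1, 51.9% of all genes were called. Of the 10 genes, 1 was called as higher (SMAD5) and 5 as lower (ID1, ID3, SMAD9, BMPR1A, BMPR2). The share of the set is near that over all genes, and nothing is read from it. Among the called genes of the set, BMPR2 had the largest difference, 1.86-fold lower in Combination than in JQ1 (log2 -0.89 ± 0.09). ID1 was 1.65-fold lower (-0.72 ± 0.09), SMAD9 1.5-fold lower (-0.58 ± 0.09) and ID3 1.39-fold lower (-0.47 ± 0.05). BMPR1A stood at -0.23 ± 0.05 and SMAD5 at 0.19 ± 0.07, and SMAD5 was not called with total counts alone (0.11), without JQ1 replicate 3 (0.17) or without Combination replicate 2 (0.19).

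The remaining 4 genes did not pass between Combination and JQ1. ID2 was at -0.20 ± 0.09, with non-overlapping libraries, and passed without JQ1 replicate 1 (-0.27), with total counts alone (-0.29) or with only these groups fitted (-0.20). SMAD6 was at -0.16 ± 0.12, with a 95% interval from -0.42 to 0.10. SMAD1 was at -0.26 ± 0.21, and at 0.01 without JQ1 replicate 3, its highest JQ1 library. ID4 was at -0.72 ± 0.33 from 31 summed counts in Combination and 54 in JQ1, and passed with total counts alone (-0.81).

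Against CAR, the ID genes were again many times higher in Combination. In this comparison 85.4% of all genes were called, and all 10 genes of the set were called, 9 higher and 1 lower. As before, nothing is read from that count. ID3 was 33.1-fold higher in Combination than in CAR (log2 5.05 ± 0.08), ID2 17.0-fold (4.09 ± 0.16) and ID1 15.8-fold (3.98 ± 0.11). SMAD6 was 10.6-fold higher (3.40 ± 0.19), BMPR2 1.91-fold higher (0.93 ± 0.09), and SMAD1 3.38-fold lower (-1.76 ± 0.17).

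The interaction term asks whether the change with JQ1 was the same in the presence of CAR (Combination minus CAR) as in its absence (JQ1 minus DMSO). It was called for 38.3% of all genes and for 0 of the 10 genes by edgeR, although 4 of the 10 had an unadjusted p under 0.05 and DESeq2 called 1, BMPR2. For ID1 the log2 value was -0.39 ± 0.16, for BMPR2 -0.28 ± 0.12, for BMPR1A -0.15 ± 0.07 and for SMAD6 0.71 ± 0.29. Without DMSO replicate 3 the count was 3, with ID1 at -0.61, BMPR2 at -0.16 and SMAD5 at 0.16. ID1 was also called with the replicate number as a block, BMPR2 without DMSO replicate 2 (-0.37), and SMAD6 without DMSO replicate 1 (0.87) or CAR replicate 3 (1.05). A value that did not pass does not show that the changes were alike.

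Without Combination replicate 1, the library with liver transcripts, the largest shift of a log2 difference was -0.20, for ID4, and for the other 9 genes it was -0.05, for SMAD1. Scaling by total counts alone lowered the median of all genes to -0.21 for Combination minus DMSO, -0.13 for JQ1 minus DMSO and -0.15 for Combination minus CAR. Under it ID1 was still at 3.44 and 4.25 for Combination and JQ1 minus DMSO, and SMAD1 at -2.29 and -1.94.

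The 10 genes fell into patterns that could be compared by the root mean square difference of their 4 group means of log2 CPM, computed with a prior count of 2 that draws low levels together, after each gene was centred on its own mean. ID1 and ID2 differed by 0.26 by this measure, and BMPR1A and SMAD5 by 0.22. SMAD1 was unlike every other gene of the set, at 1.07 or more. Among 10740 genes of at least 5 CPM in their highest group, those most like ID1 were IQCN (0.05), DACT3 (0.23) and TLR9 (0.24). H1-2 (0.16), TLR9 (0.18) and H2BC5 (0.20), the first and last of them histone genes, were most like ID2. EFR3B (0.20), BSN (0.21) and VWA5B2 (0.27) were most like ID3. BSN and VWA5B2 were themselves near or under the floor without JQ1. BSN was at 0.156 CPM in CAR and 0.27 CPM in DMSO, and VWA5B2 at 0.0528 CPM in CAR and 0.198 CPM in DMSO. No likeness is given for ID4, which was at or under the floor in CAR and DMSO. These are descriptions over 4 group means, in which all genes share the same libraries.

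Of a list of 67 further genes of the BMP pathway, 60 were in the tables and 40 passed the filter. In Combination minus DMSO, 20 rose and 18 fell, where 85.4% of all genes were called (5386 higher, 5415 lower). In JQ1 minus DMSO, 23 rose and 16 fell, where 83.7% of all genes were called (5247 higher, 5332 lower). In CAR minus DMSO, 9 rose and 19 fell, where 57.3% of all genes were called (3449 higher, 3801 lower). In Combination minus JQ1, 5 rose and 20 fell, where 51.9% of all genes were called (3292 higher, 3275 lower). The interaction was called for 23 of the 40, 9 above and 14 below 0, where 38.3% of all genes were called (2536 above, 2305 below). The adjusted p-values of these genes come from the same edgeR test, with the Benjamini-Hochberg adjustment made over all 12645 genes. The lists were chosen with earlier results of these data known, and some genes named below were picked by their small adjusted p. Their p-values, and those of the ID partners, are therefore descriptive and not independent tests.

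Of 4 ligands tested, BMP4 was the most abundant. It had 272, 257 and 272 CPM in the Combination libraries, 500, 496 and 494 CPM in the JQ1 libraries, 96.6, 90.4 and 99.1 CPM in the CAR libraries, and 229, 210 and 231 CPM in the DMSO libraries. The JQ1 libraries were highest and the CAR libraries lowest, with no overlap between any groups. BMP4 rose with Combination (log2 0.46 ± 0.04, adjusted p = 6.6e-10) and with JQ1 (1.27 ± 0.04, adjusted p = 1.39e-17) and fell with CAR (-1.16 ± 0.04, adjusted p = 7.02e-15). BMP8B followed the same directions, at 1.12, 1.41 and -1.25 for Combination, JQ1 and CAR. GDF5, a ligand of the growth and differentiation factor branch, fell with Combination (-2.08 ± 0.26) and JQ1 (-3.36 ± 0.31). Its counts were low, at 7 to 11 in a Combination library and 2 to 6 in a JQ1 library, against 40 to 56 with DMSO. BMP6 rose with CAR (1.30 ± 0.24, adjusted p = 0.000113), with JQ1 (1.72 ± 0.24, adjusted p = 6.83e-07) and with Combination (0.81 ± 0.27, adjusted p = 0.0086).

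Of 6 receptors and co-receptors tested, 2 rose and 4 fell with Combination, and likewise with JQ1, where 85.4% and 83.7% of all genes were called. ENG, the co-receptor endoglin, fell furthest: it had 2.58, 2.62 and 2.13 CPM in the Combination libraries, 7.26, 7.18 and 7.34 CPM in the JQ1 libraries, 41.7, 42.4 and 40.0 CPM in the CAR libraries, and 62.6, 58.7 and 58.1 CPM in the DMSO libraries. Each group was separate from the next, with Combination the lowest. ENG was 21.1-fold lower in Combination than in DMSO (log2 -4.40 ± 0.08, adjusted p = 1.87e-21) and 7.58-fold lower in JQ1 than in DMSO (-2.92 ± 0.07, adjusted p = 5.98e-20). ACVR2A, a type II receptor shared with activins, rose 2.40-fold with Combination and 2.36-fold with JQ1. ACVR1, a type I receptor, rose by less (0.34 ± 0.06 and 0.33 ± 0.06), and BMPR1B, another type I receptor, fell with Combination (-2.39 ± 0.22). With CAR, ACVR2B, also a type II receptor, fell (-0.39 ± 0.10) and the co-receptor RGMB rose (0.33 ± 0.05). ACVR2B had means of 9.37 CPM in Combination, 11.6 CPM in JQ1, 12.35 CPM in CAR and 17.0 CPM in DMSO. RGMB had means of 44.7 CPM in Combination, 46.5 CPM in JQ1, 72.9 CPM in CAR and 60.7 CPM in DMSO. ACVR1 stood at 39.8 CPM in CAR and 39.3 CPM in DMSO.

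Of 9 antagonists tested, 3 rose and 5 fell with Combination, 5 rose and 4 fell with JQ1, and 2 rose and 4 fell with CAR. These comparisons called 85.4%, 83.7% and 57.3% of all genes. NOG, which binds BMPs outside the cell, had 6.08, 4.92 and 6.28 CPM in the Combination libraries, 6.16, 6.48 and 6.93 CPM in the JQ1 libraries, 16.9, 17.9 and 17.1 CPM in the CAR libraries, and 24.3, 27.2 and 27.5 CPM in the DMSO libraries. The Combination and JQ1 libraries overlapped and were the lowest. NOG fell with Combination (log2 -1.98 ± 0.09, adjusted p = 4.08e-15), with JQ1 (-1.89 ± 0.09, adjusted p = 6.98e-15) and with CAR (-0.54 ± 0.07, adjusted p = 2.14e-06). FST, which binds activin and some BMPs, fell with Combination (-2.90 ± 0.09) and JQ1 (-2.66 ± 0.09). CRIM1, a membrane protein that binds BMPs, rose with both (1.18 ± 0.04 and 1.21 ± 0.04). FSTL1 and TWSG1 fell with CAR (-0.46 and -0.43) and FSTL3 rose (0.71). FSTL3 had means of 17.5 CPM in Combination, 15.1 CPM in JQ1, 16.65 CPM in CAR and 10.6 CPM in DMSO.

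BAMBI, a pseudoreceptor that is itself induced by BMP signalling, had 10.3, 8.72 and 9.01 CPM in the Combination libraries, 16.3, 16.1 and 17.9 CPM in the JQ1 libraries, 4.56, 3.57 and 3.78 CPM in the CAR libraries, and 3.38, 3.62 and 4.0 CPM in the DMSO libraries. Its order of groups was that of ID1 in the libraries given JQ1, while CAR and DMSO overlapped. BAMBI rose 2.93-fold with Combination (log2 1.55 ± 0.12, adjusted p = 4.06e-11) and 4.95-fold with JQ1 (2.31 ± 0.11, adjusted p = 8.03e-15), and stood at 0.18 ± 0.14 with CAR (adjusted p = 0.266).

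All 14 intracellular partners and inhibitors on the list were tested. With Combination 9 rose and 5 fell, with JQ1 10 rose and 4 fell, and with CAR 2 rose and 9 fell. Over all genes, 85.4%, 83.7% and 57.3% were called in these comparisons. SMAD7, the other inhibitory SMAD, rose with Combination (log2 0.64 ± 0.09, adjusted p = 1.61e-06) and JQ1 (1.34 ± 0.09, adjusted p = 2.69e-12) and fell with CAR (-0.51 ± 0.10, adjusted p = 0.000269). Its means were 16.4 CPM in Combination, 28.4 CPM in JQ1, 8.17 CPM in CAR and 12.2 CPM in DMSO. The transcriptional co-repressors SKI and SKIL rose with JQ1 (1.28 and 1.40), and SKI with Combination (1.33). PPM1A, a phosphatase, rose with JQ1 (0.75), whereas the phosphatase genes CTDSP1 and CTDSPL fell with Combination (-1.11 and -1.22). With CAR, CTDSPL (-0.52), FKBP1A (-0.43), which binds type I receptors, and CTDSP2 (-0.43) fell.

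SMAD4, the partner of all receptor-activated SMADs, differed little: it rose with Combination (log2 0.28 ± 0.05, adjusted p = 7.42e-06) and stood at 0.13 ± 0.05 with JQ1 (adjusted p = 0.0133) and -0.12 ± 0.05 with CAR (adjusted p = 0.0304). Scaled by total counts alone it was at 0.07 and 0.01 for Combination and JQ1 and did not pass, and its JQ1 call was lost without JQ1 replicate 2 (0.11). Its CAR call was lost without CAR replicate 2 (-0.09), DMSO replicate 1 (-0.09) or DMSO replicate 2 (-0.11). SMAD2 and SMAD3, which transmit TGF-beta and activin signals, were lower with JQ1 (-0.18 ± 0.04, adjusted p = 0.000581, and -0.72 ± 0.04, adjusted p = 9.5e-13). SMAD2 had means of 64.1 CPM in Combination, 79.5 CPM in JQ1, 82.6 CPM in CAR and 97.8 CPM in DMSO. SMAD3 had means of 171 CPM in Combination, 126 CPM in JQ1, 201 CPM in CAR and 226 CPM in DMSO.

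Of 7 listed target genes tested, 3 rose and 3 fell with Combination and with JQ1, and 2 rose and 2 fell with CAR. The shares called over all genes were 85.4% for Combination, 83.7% for JQ1 and 57.3% for CAR. ATOH8, a basic helix-loop-helix factor, had 10.6, 9.85 and 10.7 CPM in the Combination libraries, 28.1, 29.8 and 31.1 CPM in the JQ1 libraries, 1.32, 0.472 and 0.746 CPM in the CAR libraries, and 3.64, 3.28 and 3.89 CPM in the DMSO libraries. The 4 groups were separate, in the order JQ1, Combination, DMSO, CAR. ATOH8 rose 8.91-fold with JQ1 (log2 3.16 ± 0.11, adjusted p = 5.09e-17) and fell 4.03-fold with CAR (-2.01 ± 0.22, adjusted p = 9.11e-08). The transcription factor genes GATA2 and GATA3 went in opposite directions with Combination (1.65 ± 0.11 and -2.47 ± 0.15). KLF10, an early response gene of TGF-beta, fell with Combination (-0.72 ± 0.05) and JQ1 (-1.23 ± 0.05) and rose with CAR (0.22 ± 0.05), and TSC22D1 rose with JQ1 (0.51 ± 0.04).

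A list of 19 partners and associates of the ID proteins had 12 genes in the tables and 7 tested, of which 1 rose and 6 fell with Combination, and likewise with JQ1. Of all genes, 85.4% and 83.7% were called in these comparisons, about evenly higher and lower. With CAR, 1 rose and 2 fell, where 57.3% of all genes were called. TCF3, the gene of the E proteins E12 and E47 that ID proteins bind, had 37.0, 40.0 and 42.7 CPM in the Combination libraries, 37.8, 38.9 and 39.7 CPM in the JQ1 libraries, 114, 114 and 108 CPM in the CAR libraries, and 94.8, 94.3 and 97.6 CPM in the DMSO libraries. Combination and JQ1 overlapped below the others, and CAR was highest. TCF3 fell with Combination (log2 -1.05 ± 0.05, adjusted p = 9.92e-15) and JQ1 (-1.18 ± 0.05, adjusted p = 1.6e-15) and rose with CAR (0.29 ± 0.05, adjusted p = 1.31e-05). TCF12, another E protein, fell with Combination (-0.99 ± 0.07, adjusted p = 4.53e-11) and JQ1 (-0.85 ± 0.07, adjusted p = 4.16e-10), and was at 0.13 ± 0.06 with CAR (adjusted p = 0.0892). TCF4 and TWIST1 were not in the tables used here and could not be tested.

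USP1, the deubiquitinase that stabilises ID proteins, fell 3.09-fold with Combination (log2 -1.63 ± 0.05, adjusted p = 6.37e-18) and 2.69-fold with JQ1 (-1.43 ± 0.05, adjusted p = 5.33e-17). Its means were 45.2 CPM in Combination, 55.2 CPM in JQ1 and 161 CPM in DMSO. CDKN1A, the cell cycle inhibitor p21 whose transcription E proteins can raise, was the 1 gene of the list that rose with JQ1. It had means of 199 CPM in Combination, 165 CPM in JQ1, 51.7 CPM in CAR and 59.8 CPM in DMSO, a change of 1.94 ± 0.04 for Combination (adjusted p = 7.46e-21) and 1.58 ± 0.04 for JQ1 (adjusted p = 2.98e-19). SCX, a helix-loop-helix factor, fell with CAR (-0.93 ± 0.19, adjusted p = 0.000264). Its means were 1.575 CPM in Combination, 2.06 CPM in JQ1, 1.77 CPM in CAR and 3.52 CPM in DMSO.

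**Figure D4:**
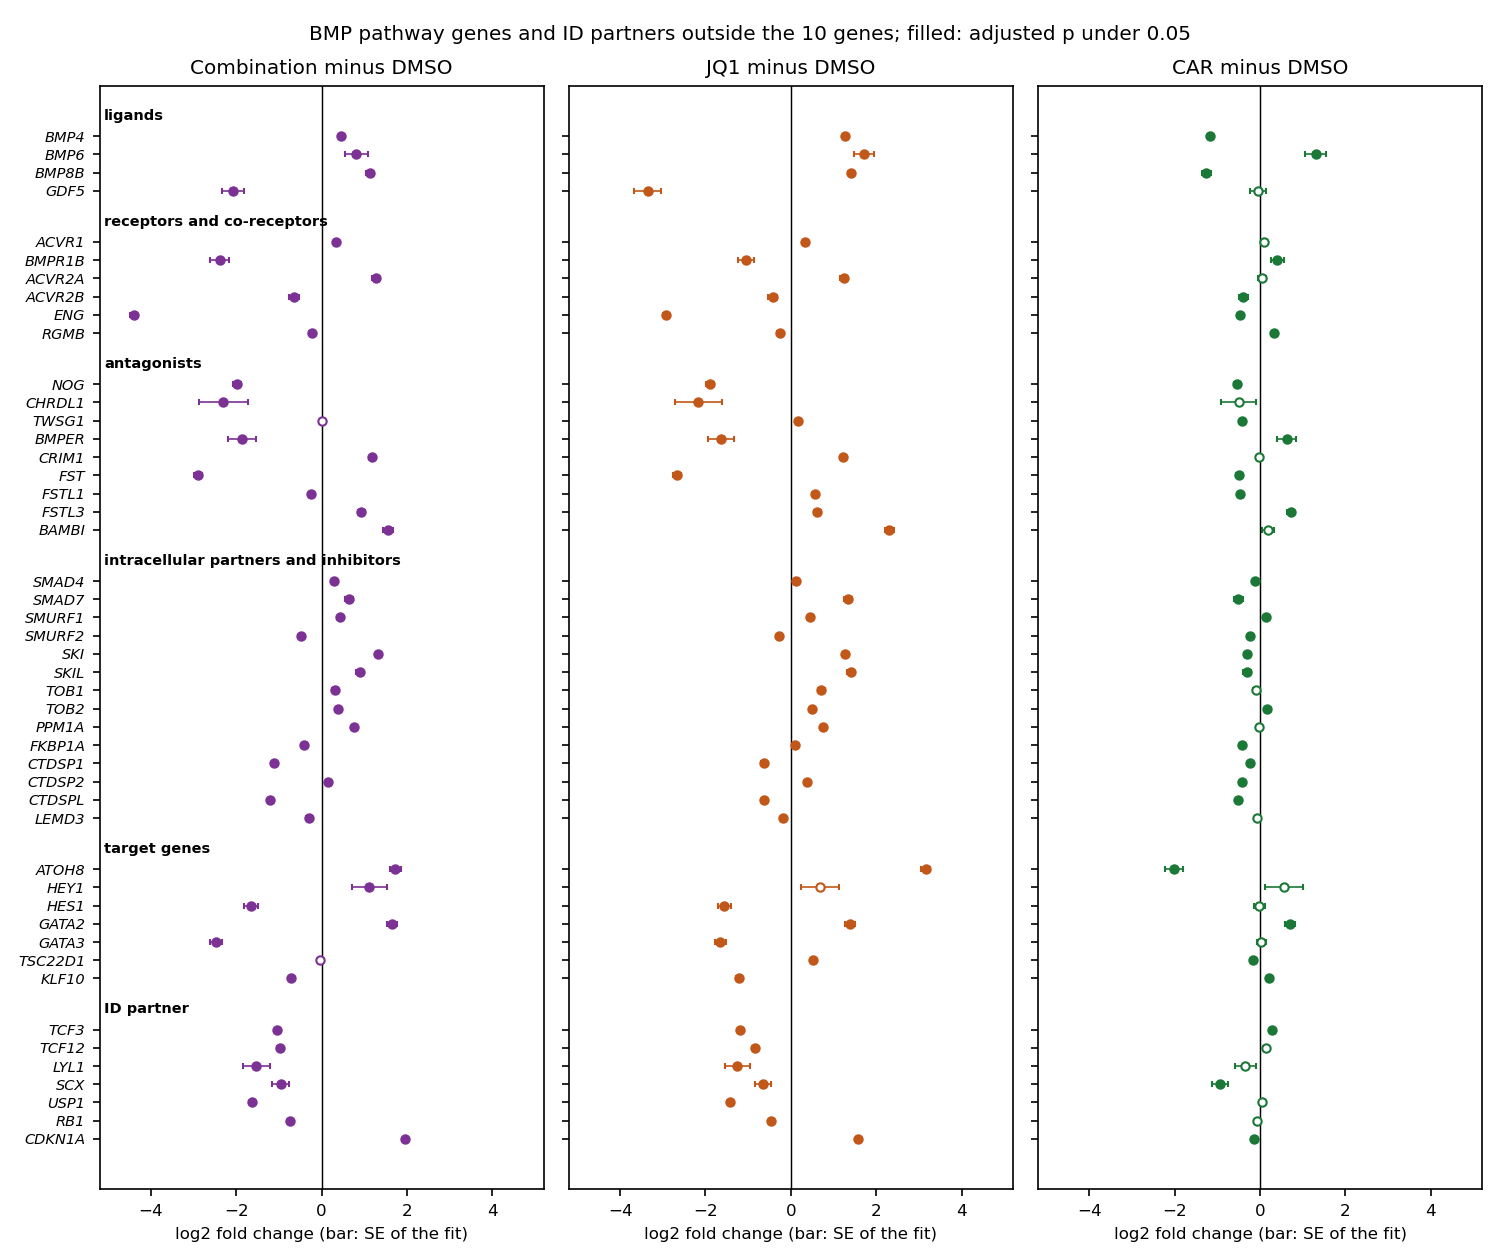
Log2 fold changes (points) with the SE of the fit (bars) of the 40 tested BMP pathway genes outside the set, by role, and of the 7 tested ID partners, for Combination, JQ1 and CAR minus DMSO; filled points had an adjusted p under 0.05. ENG is the lowest point for Combination at -4.40, ATOH8 the highest for JQ1 at 3.16, and most points for CAR lie nearer 0.

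The antisense genes ID2-AS1, SMAD1-AS1, SMAD1-AS2 and SMAD5-AS1 overlap members of the set in the GENCODE annotation, and an antisense gene named only by its clone overlaps ID4, and the strand used in counting is not given in the sources used here. It is therefore unknown whether reads from these antisense genes were counted for ID2, ID4, SMAD1 and SMAD5, and none of these antisense genes had a row of its own. SMAD6, SMAD9, BMPR1A and BMPR2 also overlap annotated non-coding genes or pseudogenes that had no row. ID1 (chr20:31605283-31606515, plus strand) and ID3 (chr1:23557918-23559794, minus strand), the 2 genes with the highest counts of the family, overlap no annotated gene.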

How the data were processed

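Per the submitters' processing notes, Trimmomatic, HISAT2 and HTSeq were used with hg38; versions, annotation and strand setting are not given in these sources. The authors deposited raw read counts per gene symbol, 1 table per library. These were joined over 16384 genes and tested in R 4.3.3 with edgeR 4.0.16 (TMM factors 0.92 to 1.08, robust quasi-likelihood fit, 1 coefficient per group over all 12 libraries, 8 residual degrees of freedom, common biological coefficient of variation 0.0408). The filter (minimum count 10, minimum total 15) kept 12645 genes, and p-values were adjusted by Benjamini-Hochberg over all of them, with 0.05 as the threshold. CPM values are counts over the library total, whereas fold changes include the TMM factors. The exact intervals of ID4 and the floor cover counting error only. The 95% intervals of log2 differences come from the edgeR fit and include the spread between libraries. Gene positions and merged exon lengths came from GENCODE release 29 (97.1% of symbols matched 1 gene) and promoters from RefSeq.

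The members and lists were chosen with earlier results of these data known. Members were followed in every comparison. Of the other genes, SMAD2, SMAD3, SMAD4, SMAD7, BAMBI, ACVR1, BMP4, NOG, TCF3 and TCF12 were also followed in every comparison. Not every value of these genes is printed. Up to 3 called genes of the smallest adjusted p were added per role and comparison with DMSO. These had a mean of 1 CPM or more in the higher group. Alternatives were RLE, upper-quartile and total-count scaling, no filter, only the groups compared, the replicate number as a block, DESeq2 1.42.0, and each library left out. The fit was tested on simulated counts.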

Additional observations from a re-analysis of the deposited data

Results flagged for a closer look

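Of the genes outside the set that were followed in every comparison, 6 had a change with JQ1 that differed between cells with and without CAR. The test was the interaction term of the edgeR fit, adjusted over all genes by the Benjamini-Hochberg method. The same test called 38.3% of all genes, 23 of the 40 listed BMP pathway genes and 4 of the 7 ID partners, so these 6 are not all. SMAD3 was at -0.09 for Combination minus CAR and at -0.72 for JQ1 minus DMSO, a difference of 0.63 ± 0.06 on the log2 scale (SE, adjusted p = 1.01e-07). BAMBI rose less in the presence of CAR (1.37) than in its absence (2.31), a difference of -0.94 ± 0.16 (adjusted p = 0.000135). BMP4 rose more in the presence of CAR (1.63) than in its absence (1.27), a difference of 0.35 ± 0.06 (adjusted p = 7.4e-05). NOG fell less in the presence of CAR (-1.44) than in its absence (-1.89), a difference of 0.45 ± 0.13 (adjusted p = 0.0109). SMAD4 was at 0.40 in the presence of CAR and 0.13 in its absence, a difference of 0.27 ± 0.06 (adjusted p = 0.0023). TCF12 was at -1.12 in the presence of CAR and -0.85 in its absence, a difference of -0.27 ± 0.10 (adjusted p = 0.033), and that call was lost in 8 of the 12 fits that left out 1 library, where the difference was between -0.27 and -0.21.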

How the results depend on the processing

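For the 10 genes, 60 differences (10 genes in 6 comparisons) were recomputed under the alternatives listed above, which gave 1127 values. Of these values, 1079 kept direction and side of the threshold, 27 lost a call, 14 gained one and 7 changed sign. The replicate numbers did not pair the libraries: 2 of 18 correlations of deviations exceeded 0.1, over a range of -0.182 to 0.179. With a replicate block, the interaction was called for 1 of the 10 genes, ID1 (-0.39). DESeq2 called 1. With 1 library left out, members called ranged from 2 to 5 for CAR minus DMSO and from 0 to 3 for the interaction. ID partners called ranged from 3 to 5 for Combination minus JQ1, with 5 when only those groups were fitted, and from 2 to 5 for the interaction. Signs changed for uncalled values near 0. For ID2, CAR minus DMSO, the range was -0.0501 to 0.494. For Combination minus JQ1 it was -0.43 to 0.011 for SMAD1, -0.152 to 0.00774 for NOG and -0.0163 to 0.0283 for ACVR1, which was also at -0.00307 with upper-quartile factors and -0.0786 with total counts. For the interaction it was -0.106 to 0.336 for SMAD1, -0.0261 to 0.16 for SMAD5 and -0.223 to 0.0409 for SMAD9. The cause of these changes was not tested. Differences of CAR minus DMSO depend on the spread of 3 DMSO libraries of which 1 stands apart, and ID4 is limited by its counts of at most 21 in a library.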

Other observations

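Among the genes counted here, the nearest neighbours of 2 genes of the set had changes that were chosen for mention after their values were seen. Annotated genes without counts were passed over. E2F2, a cell cycle transcription factor gene on the same strand 26698 bases beyond ID3, fell with Combination (log2 -4.96 ± 0.31, adjusted p = 8.24e-12, edgeR) and with JQ1 (-4.63 ± 0.30, adjusted p = 9.63e-12). It had means of 0.217 CPM in Combination, 0.291 CPM in JQ1, 10.2 CPM in CAR and 8.04 CPM in DMSO, so that it moved opposite to ID3. RPL11, a ribosomal protein gene on the other side of ID3, was at -0.01 ± 0.05 with Combination and -0.02 ± 0.05 with JQ1. FAM117B, on the same strand 67437 bases beyond BMPR2, rose with Combination (1.38 ± 0.10, adjusted p = 2.59e-11) and JQ1 (2.09 ± 0.09, adjusted p = 4.96e-15) and fell with CAR (-0.79 ± 0.13, adjusted p = 2.72e-05). Its means were 18.1 CPM in Combination, 31.4 CPM in JQ1, 4.41 CPM in CAR and 8.02 CPM in DMSO.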
